A study of Mus musculus with 3 samples.

Results

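Transcript levels of 10 genes of the Hippo pathway were followed in mouse cultures that the authors call cardiac myofibroblasts. Myofibroblasts are the contractile, matrix-producing cells of the infarcted heart. The genes were Stk3, Stk4, Sav1, Lats1, Lats2, Nf2, Amotl1, Amotl2, Ptpn14 and Rassf6, and they were found through the probes whose RefSeq transcript maps to their symbols. All 10 were measured, by 13 probes of 1 spot each, among 15393 genes with a probe well above background on at least 1 array. The choice was made with values of these arrays known, and Rassf6 was selected because its signal was lost in suspension, so the values below describe the genes and carry no test. Each of the 3 states had 1 array: the adherent state (cells on plastic), the non-adherent state (cells kept in suspension) and the re-adherent state (cells put back on plastic afterwards). The cells of every state came from male C57BL/6J mice, 8 weeks old by the sample characteristics and 10 weeks old at surgery by the treatment text, whose hearts were taken 3 days after a permanent ligation of the LAD, the left anterior coronary artery. They were chosen only by attachment to plastic and by lack of the leukocyte protein CD45, and each RNA was pooled over hearts from several plates. On the non-adherent array, macrophage markers summed to more signal than fibroblast markers, as given below. The comparison was made to find genes that depend on the stiffness under the cells. With no replicate array, the only error available was the technical error that the scanner software assigns to each spot. Since the states followed each other in the same culture scheme, the time the cells had spent in culture and their state cannot be told apart.

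The Hippo pathway is a kinase cascade that restrains growth and reads cell shape, contact and tension. The kinases MST1 and MST2, encoded by Stk4 and Stk3, work with the scaffold SAV1 to activate LATS1 and LATS2, which phosphorylate the coactivators YAP and TAZ and keep them out of the nucleus, away from the TEAD transcription factors. NF2 brings LATS kinases to the membrane, the angiomotins and the phosphatase PTPN14 bind YAP, and RASSF proteins carry a Ras-association domain, with a SARAH domain in several of them that binds the MST kinases. In fibroblasts, YAP and TAZ are known as sensors of a stiff substrate, and several genes of the negative arm are themselves known targets of YAP and TEAD.

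The angiomotins Amotl1 and Amotl2, the YAP-binding phosphatase Ptpn14, the kinase Lats2 and Rassf6 were all over 2-fold lower in suspension, and all 5 were over 2-fold higher again on re-adhesion. Stk3, Stk4, Sav1, Lats1 and Nf2 stayed within 2-fold between every pair of arrays. No member was over 2-fold higher in suspension, and none differed over 2-fold between re-adherent and adherent cells. Past the same 2-fold limit, 14.7% of all 15393 genes were lower and 17.2% were higher in suspension, 16.3% were lower and 15.6% higher on re-adhesion, and 4.9% were lower and 4.84% higher in re-adherent than in adherent cells. Because the members were picked with these differences in view, nothing is read from their counts against those shares. The median log2 difference of the 10 genes was -1.33 into suspension, 1.34 on re-adhesion and -0.06 between the attached states, beside -0.07, 0.08 and 0.06 over all genes. Without Rassf6, which was selected for its loss, the median of the other 9 was -0.68 into suspension and 0.78 on re-adhesion. In RNA from a whole culture, fewer cells of a type and less RNA per cell cannot be told apart.

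**Figure D1:**
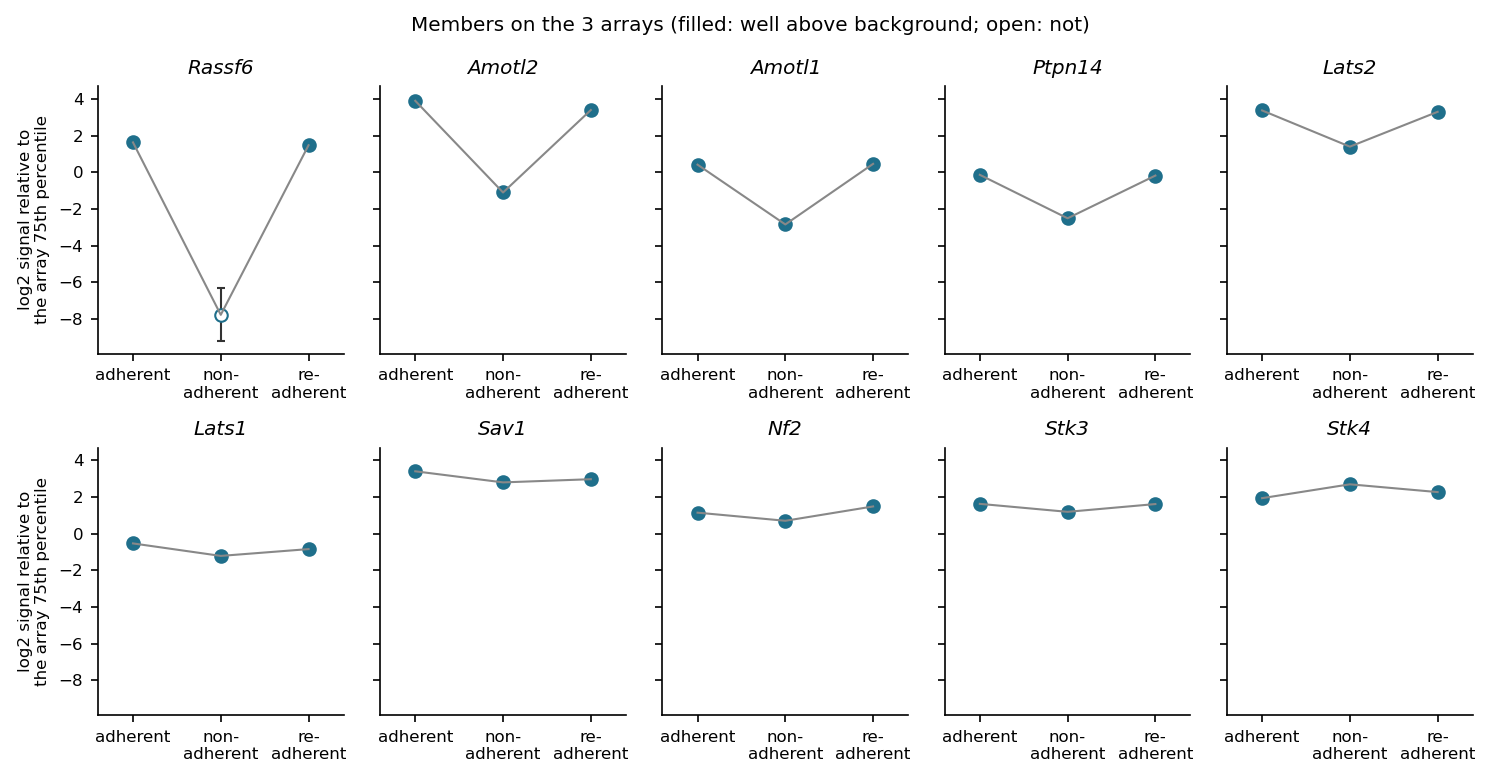
Level of each member in the 3 states, as log2 signal relative to the 75th percentile of the array; filled points were well above background, the open point was not, and bars are the technical error. The upper row (Rassf6, Amotl2, Amotl1, Ptpn14, Lats2) dips on the non-adherent array and returns, while the lower row (Lats1, Sav1, Nf2, Stk3, Stk4) stays within 2-fold. Between the non-adherent and adherent arrays, all 10 members differed by more than the technical error.

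The sequences before the transcription starts of Rassf6, Amotl2 and Ptpn14 are shown because these genes were lower in suspension together and because YAP acts through TEAD factors, whose core motif GGAATG can be looked for there. Each is the 250 bases before the start on the strand of the gene, from the RefSeq annotation of mouse build GRCm38.p6, and capitals mark GGAATG or its reverse complement CATTCC. The Rassf6 stretch lies at chr5:90640528-90640777 on the minus strand, that of Amotl2 at chr9:102717554-102717803 on the plus strand and that of Ptpn14 at chr1:189728018-189728267 on the plus strand.
Rassf6: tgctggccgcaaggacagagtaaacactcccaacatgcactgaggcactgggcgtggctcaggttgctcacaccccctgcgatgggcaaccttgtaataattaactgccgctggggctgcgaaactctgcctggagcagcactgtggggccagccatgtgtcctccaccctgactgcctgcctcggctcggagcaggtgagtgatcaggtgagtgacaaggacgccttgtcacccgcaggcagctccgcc
Amotl2: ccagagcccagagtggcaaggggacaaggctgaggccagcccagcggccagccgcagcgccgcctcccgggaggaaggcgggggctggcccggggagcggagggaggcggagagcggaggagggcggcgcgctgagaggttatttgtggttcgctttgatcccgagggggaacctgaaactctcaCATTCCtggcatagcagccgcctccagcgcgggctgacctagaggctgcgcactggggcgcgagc
Ptpn14: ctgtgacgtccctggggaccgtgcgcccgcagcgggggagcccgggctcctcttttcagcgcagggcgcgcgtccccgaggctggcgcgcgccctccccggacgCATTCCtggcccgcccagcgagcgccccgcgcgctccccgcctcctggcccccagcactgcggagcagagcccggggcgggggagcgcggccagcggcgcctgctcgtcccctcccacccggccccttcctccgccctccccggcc
The motif begins 65 bases before the start in Amotl2 and 146 bases before it in Ptpn14, and these letters are not in the Rassf6 window. Over windows from 250 bases before to 50 bases after a start, 4 of 11 starts of the members held the motif on either strand (36.4%). Among all genes it was 4817 of 32851 starts (14.7%). With only 11 windows, nothing is read from the difference between these shares. The other 2 member starts with the motif were those of Sav1, 106 bases before the start, and Lats2, from position 5 of the transcript. Of the genes with the motif in a window, Amotl2, Ptpn14 and Lats2 were over 2-fold lower in suspension and Sav1 was not. Of those without it, Rassf6 and Amotl1 were over 2-fold lower, and Stk4, Lats1 and Nf2 were not. Whether the motif has a part in these differences was not tested. No member window held a CArG box, the motif of serum response factor. Only 1.63% of all windows hold one, so 11 windows are too few for this to tell anything. The 11 member windows had a median GC content of 61.7%, against 52.7% of all. The starts belong to 9 of the 10 genes, with 2 each for Lats2 and Nf2, and a motif match is a description of letters.

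In the core of the cascade, the MST kinases and their scaffold stayed within 2-fold. Stk3, which encodes MST2, had a processed signal of 2014 intensity units on the adherent, 1594 on the non-adherent and 1663 on the re-adherent array. On the scaled log2 scale this was -0.44 ± 0.20 into suspension and 0.42 ± 0.20 on re-adhesion, where ± is the technical error. The re-adherent level of Stk3 lay 0.01 log2 units below the adherent level, inside the error. Stk4, which encodes MST1, was the only member with its highest signal in suspension, with 2498 units on the adherent, 4515 on the non-adherent and 2613 on the re-adherent array. Its differences were 0.76 and -0.42, each ± 0.20. A second, dimmer Stk4 probe gave 0.14 ± 0.21 and 0.01 ± 0.21, within its error for both steps, so the probes of this gene disagree in size. Sav1, the scaffold that joins MST to LATS, read 6900.3, 4853 and 4255 units in the same order of arrays. Its suspension difference was -0.61 ± 0.20, its re-adhesion difference of 0.17 was within the error, and it ended at -0.43 ± 0.20 relative to adherent cells.

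The differences of the LATS kinases were unequal in size. Lats1 had 451 units in adherent, 301 in non-adherent and 303 in re-adherent cells, a difference of -0.68 ± 0.21 into suspension and 0.37 ± 0.21 on re-adhesion. Scaling to spike-in probes took its suspension difference past 2-fold, to -1.07. Lats2 had 6734 units in adherent, 1833 in non-adherent and 5316 in re-adherent cells. It was 3.93-fold lower in suspension and 3.73-fold higher on re-adhesion, and both attached arrays lay within 0.08 log2 units of each other. A second Lats2 probe, for another transcript of the gene, moved the same way and further, from 715 to 106 and back to 677 units, with differences of -2.85 ± 0.21 and 3.04 ± 0.21. Nf2 encodes merlin, a FERM-domain protein under the membrane that recruits LATS. Its signal was 1444, 1136 and 1519 units, with differences of -0.44 ± 0.20, 0.78 ± 0.20 and, between the attached states, 0.34 ± 0.20. A dimmer Nf2 probe gave -0.48, 0.42 and -0.06, lower in suspension as well, with the last value inside its error.

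Among the members well above background in every state, the angiomotins had the widest differences. Amotl2, an angiomotin-like protein of junctions and actin that holds YAP in the cytoplasm, had 9694 units in adherent, 324 in non-adherent and 5686 in re-adherent cells. This was 32.0-fold lower in suspension (-5.00 ± 0.20) and 22.6-fold higher on re-adhesion (4.50 ± 0.20), and the re-adherent array stayed 0.50 log2 units below the adherent one. Of 13994 genes well above background on both arrays, 33 had a lower suspension difference than Amotl2. Amotl1, its paralogue, had 867, 96.7 and 743 units, which is 9.60-fold lower (-3.26 ± 0.21) and then 9.89-fold higher (3.31 ± 0.21). Among the same 13994 genes, 172 lay lower than Amotl1. Ptpn14, the FERM-domain tyrosine phosphatase that binds YAP, had 590.1, 122 and 477 units, 5.18-fold lower in suspension and 5.03-fold higher on re-adhesion. Relative to the adherent array, Amotl1 came back to 0.04 and Ptpn14 to -0.04 log2 units, both inside the technical error, while Amotl2 differed by more than it. With spike-in scaling Amotl1 and Ptpn14 stood at -0.44 and -0.52, and without scaling at -0.22 and -0.31, beyond that error.

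Rassf6, a RASSF protein with a SARAH domain, through which it binds MST kinases, had 2011 units in adherent and 1503 in re-adherent cells. In suspension it read 3.17 units and was not well above background, where the lowest signal so called on that array was 14.0 units. Taken against that lowest signal, Rassf6 was at least 154-fold higher in adherent than in non-adherent cells and at least 138-fold higher in re-adherent than in non-adherent cells. The measured difference, -9.41 ± 1.45 and then 9.25 ± 1.45, rests on a signal near 0 and has no order among such genes. After normexp correction it was -5.12 and 4.95, below the bounds just given. The attached states differed by -0.15 ± 0.20. Rassf6 was the only member not well above background on an array, and it was selected for this loss. It had a single probe of 1 spot, so no second probe bears on it. The genes around each member spot on the slide give the local background of a difference: within 5 rows and columns, their median lay between -0.42 and 0.04 for the members in suspension and between 0.01 and 0.37 on re-adhesion.

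**Figure D2:**
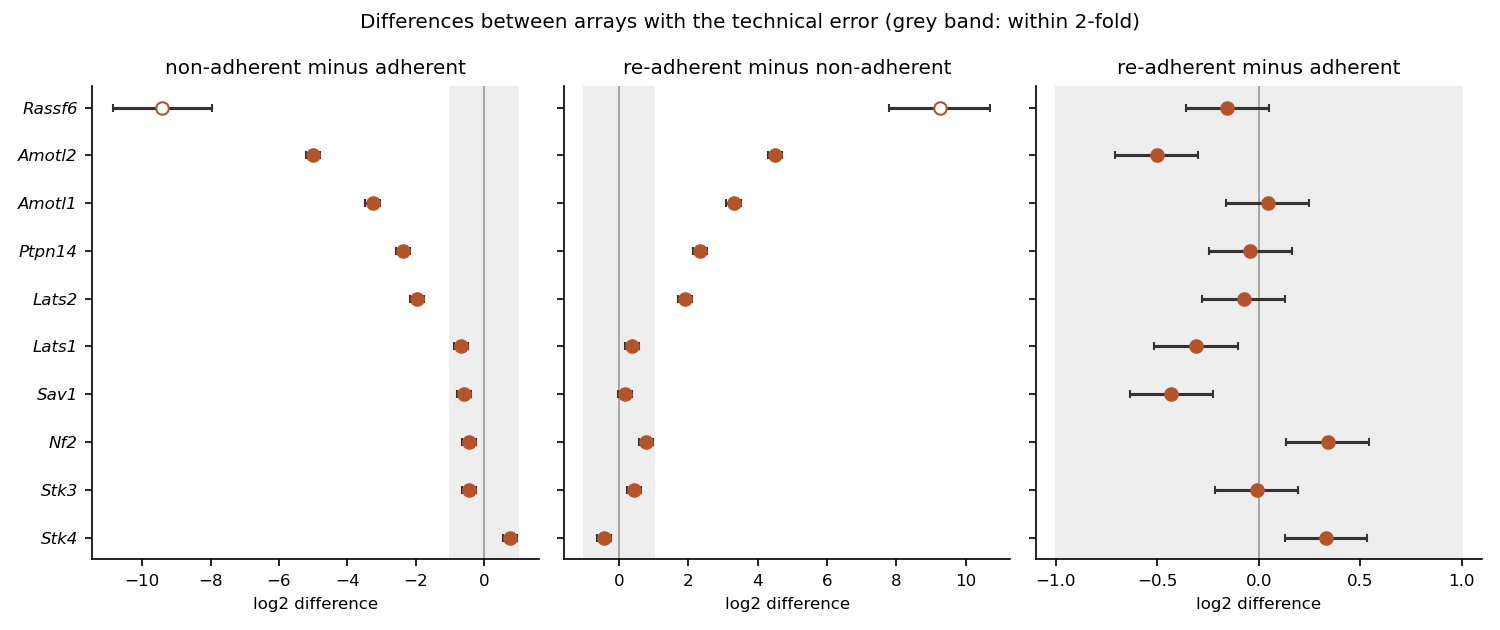
Log2 difference of each member between the arrays named above each panel, with bars for the technical error and a grey band for differences within 2-fold; open points rest on a signal not well above background. Rassf6, Amotl2, Amotl1, Ptpn14 and Lats2 lie left of the band in the first panel and right of it in the second, and all 10 genes lie inside it in the third, whose axis is narrower.

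Between the attached states no member passed 2-fold under any of the 8 alternatives, and the smaller differences there moved with the scaling. Scaling to spike-in probes, which moved the median of all genes from 0.06 to -0.42, put all 10 members lower in re-adherent cells, from -0.14 for Nf2 to -0.99 for Amotl2. Without scaling the values ran from -0.77 for Amotl2 to 0.07 for Nf2.

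In all, 209 genes, Rassf6 among them, were well above background on the attached arrays only. The profile of Rassf6 was set against the others by the Euclidean distance between 3-array profiles centred on their own means. The 3 closest were Col2a1, a cartilage collagen, 1700009N14Rik and Cobl, an actin nucleator, at distances of 0.20, 0.71 and 1.43 log2 units. Their suspension differences of -9.69, -8.58 and -7.38 carry technical errors of 1.18 to 1.46, since all had a non-adherent signal not well above background. The distances are within or near these errors, so no order is read among the 3 genes.

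The rest of the pathway was read from 82 other genes sorted by role, of which 74 were measured. Into suspension 22 were over 2-fold lower and 13 higher, and on re-adhesion 11 were lower and 24 higher. Over all genes, 14.7% were lower and 17.2% higher into suspension, and 16.3% lower and 15.6% higher on re-adhesion. Nothing is read from counts near these shares, here or in the lists below. Between the attached states 2 were lower and 5 higher, as were 4.9% and 4.84% of all genes. With spike-in scaling these were 5 lower and 0 higher, without scaling 3 and 1, and after normexp correction 0 and 0. The 74 genes had median differences of -0.26 into suspension, 0.32 on re-adhesion and 0.02 between the attached states. The direct partners of the members are given whatever their values. Mob1a and Mob1b, the adaptors through which MST activates LATS, stayed within 2-fold, with -0.25 ± 0.21 and -0.61 ± 0.21 into suspension. Amot, the founding angiomotin, had 2033, 447 and 1595 units and moved with its paralogues, by -2.28 ± 0.20 and 2.20 ± 0.20. Wwc1, the KIBRA scaffold that links merlin to LATS, went from 499 to 35.2 and back to 429 units, and Wwc2 from 17267 to 4583 and back to 15340. Their suspension differences were -3.92 ± 0.24 and -2.01 ± 0.20. Frmd6, a FERM-domain protein upstream of the kinases, was not well above background in suspension and was at least 4.19-fold higher in adherent cells. Thus the 3 measured scaffolds of this class and the 3 angiomotins were all below the 2-fold limit in suspension and above it on re-adhesion. For Frmd6 a normexp background correction gave -0.72 and 0.64, within 2-fold, but its offset shrinks differences between signals this dim.

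Most other RASSF genes did not have the direction of Rassf6. Of 8 measured, 4 had a measured difference over 2-fold higher in suspension and 1 was lower, and on re-adhesion 3 were lower and 1 was higher. With low signals raised to the lowest one well above background, the 4 became 3 and the 3 became 2, because Rassf9 left both counts. Rassf4 had 85.2 units in adherent, 1387 in non-adherent and 178 in re-adherent cells, a difference of 3.93 ± 0.21 and then -2.60 ± 0.21. Rassf2, which binds MST kinases, had 692, 4847 and 834 units, with 2.71 ± 0.20 and -2.17 ± 0.20. Rassf9 was well above background in suspension only, at 28.3 units, at least 1.58-fold over adherent and at least 1.20-fold over re-adherent cells. Rassf1 and Rassf5 are named after their values were seen, as the best known MST partners of the family: Rassf1 went the way of Rassf6 with -2.06 ± 0.20 and 1.94 ± 0.20, and Rassf5 the other way with 1.55 ± 0.20 and -0.55 ± 0.20. Rassf6 and Rassf1 were thus the measured RASSF genes over 2-fold lower in suspension, and Rassf3, Rassf7 and Rassf8 stayed within 2-fold. Macrophage markers were also higher in suspension (median 2.61, given below), and their part in the RASSF differences was not tested. With normexp correction the Rassf9 differences shrank to 0.14 and -0.14, smaller than the bounds given above, as its offset makes likely for so dim a gene.

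Among kinases that can take the place of MST in activating LATS, 9 were measured, 2 over 2-fold lower and 3 higher in suspension. Map4k1, a kinase best known from blood cells, had 170.4, 853 and 117 units, with 2.22 ± 0.21 and -2.50 ± 0.21. Of the atypical cadherins that feed the pathway, Fat1 was lower in suspension, from 39982 to 6335 and back to 24976 units (-2.76 ± 0.20, then 2.34 ± 0.20), and Dchs1 was higher, from 83.5 to 564 and then 32.5 units (2.66 ± 0.22, then -3.76 ± 0.30). Of the 3 LIM proteins that hold LATS inactive at junctions, Ajuba had 2575, 413 and 2370.3 units (-2.74 ± 0.20, then 2.89 ± 0.20), and 2 of the 3 were over 2-fold lower in suspension.

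At the end of the cascade, 6 of the 7 effector genes were over 2-fold lower in suspension and came back over 2-fold on re-adhesion, and 1 was the reverse. Tead1 had 11414, 925 and 7258 units, with -3.72 ± 0.20 and 3.34 ± 0.20. Tead4 was not well above background in suspension and was at least 7.27-fold higher in adherent and at least 7.49-fold higher in re-adherent cells. Its signals of 99.4, 14.6 and 85.2 units were dim, so these bounds are approximate. Yap1 and Wwtr1, which encode YAP and TAZ and are named after their values were seen, were lower in suspension by -1.74 ± 0.20 and -1.08 ± 0.20 on the log2 scale. Vgll4, a TEAD cofactor that competes with YAP and is also named after its value was seen, was the reverse, with 1.41 ± 0.20 into suspension and -1.02 ± 0.20 on re-adhesion. Transcript levels say nothing of phosphorylation or of where YAP lies in the cell.

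**Figure D3:**
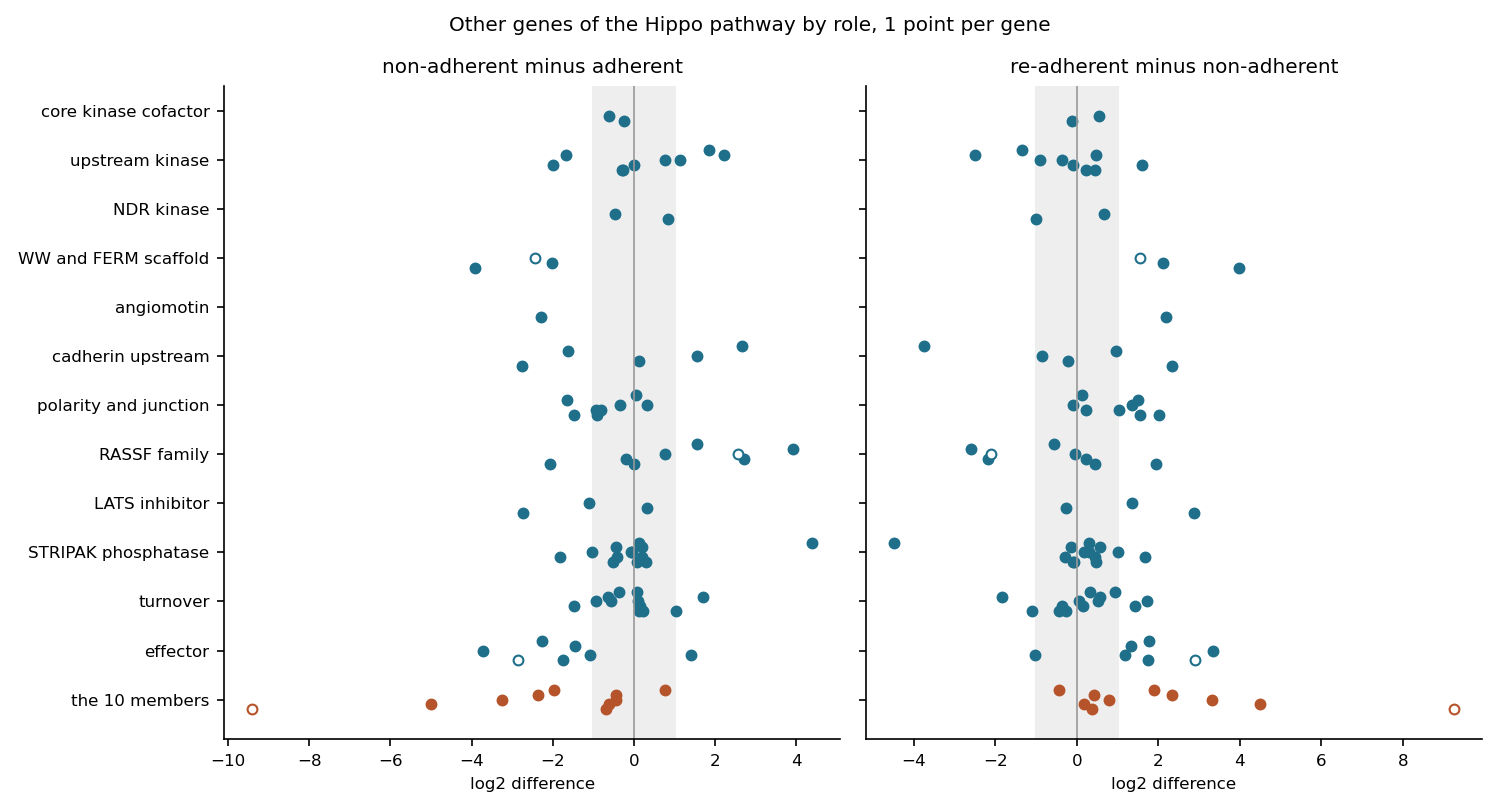
Log2 difference into suspension (left) and on re-adhesion (right) for the 74 other measured genes of the pathway by role and for the 10 members (bottom row), 1 point per gene; open points were not well above background on 1 of the arrays, and the grey band is within 2-fold. The scaffolds, the angiomotin Amot and 6 of 7 effectors lie on the same side as the members that moved, whereas the RASSF genes spread to both sides.

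The cells were also checked against markers of the cell types a heart digest can hold, whose levels also differed between the states. All 12 fibroblast and myofibroblast markers were well above background in every state, with 5 over 2-fold lower and 2 higher in suspension. Acta2, the smooth muscle actin of myofibroblasts, differed by -6.64 ± 0.07 into suspension, whereas the matrix proteoglycans Lum and Dcn were higher there, by 3.56 ± 0.20 and 1.69 ± 0.20. In re-adherent against adherent cells, Lum at -2.85 ± 0.20 and Dcn at -1.51 ± 0.20 were the 2 of the 12 markers past 2-fold. The summed signal of the 12 markers, in units of the 75th percentile of each array, was 2355 in adherent, 916 in non-adherent and 2132 in re-adherent cells. Acta2 and Tagln made most of the fall in that sum. Acta2 read 435747 units in adherent and 4690 in non-adherent cells, and Tagln 370324 and 6281. Of 12 macrophage markers 11 were measured, 10 of them over 2-fold higher in suspension, with a median of 2.61. The summed signal of this list was 207, 1119 and 371, so on the non-adherent array it exceeded the 916 of the fibroblast list. The lists hold different genes, so their sums are not shares of cells. Ptprc, which encodes CD45, the protein used for depletion, was well above background on every array and differed by 2.68 ± 0.20 into suspension. In re-adherent against adherent cells 4 of the 11 macrophage markers were over 2-fold higher and 0 lower, with a median of 0.85. The largest was Cx3cr1 at 4.62 ± 0.20. With spike-in scaling 1 of the 11 was over 2-fold higher, with a median of 0.36. Of the 8 endothelial markers 5 were over 2-fold higher in suspension and 7 were over 2-fold lower on re-adhesion. In re-adherent against adherent cells 5 of the 8 were over 2-fold lower, with a median of -1.77. For that pair these markers gave 4 and -1.19 with low signals raised, and 3 and -0.69 after normexp correction. Their summed signal was 23.3, 35.4 and 22.2, to which Kdr, with -0.35 into suspension and 0.74 on re-adhesion, gave the most on both attached arrays. The 5 measured mesothelial or epithelial markers had a median of -0.89 into suspension and 2.30 on re-adhesion, with 2 of them over 2-fold lower and then 4 over 2-fold higher, and a summed signal of 4.05, 2.36 and 10.3. Keratin 19 (Krt19) had -2.27 into suspension and 3.28 on re-adhesion, while the mesothelial markers Msln and Upk3b had 0.83 and -0.08 into suspension. The cardiomyocyte list had 4 of 7 genes measured and a median of 0.97 into suspension, and the lymphocyte list 2 of 6 and a median of 0.37. The part of the cell types behind these markers in the differences of the members and of the other pathway genes was not tested.

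**Figure D4:**
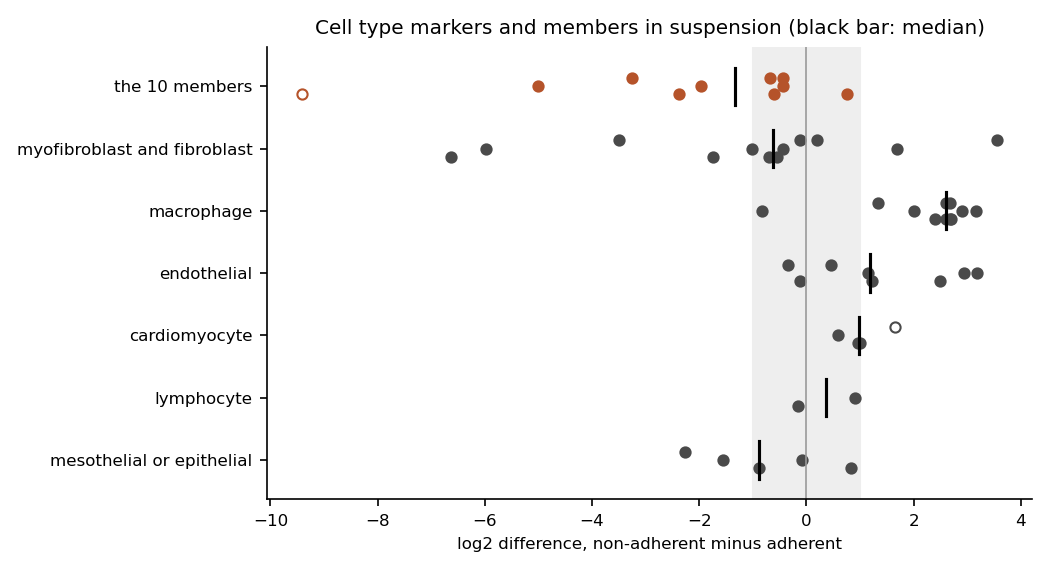
Log2 difference between non-adherent and adherent cells for the 10 members and for each list of cell type markers, 1 point per gene, with a black bar at the median and a grey band within 2-fold; open points were not well above background on 1 of the arrays. The macrophage markers lie to the right (median 2.61), the members to the left (median -1.33, or -0.68 without Rassf6), and the fibroblast markers spread to both sides (median -0.63).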

How the data were processed

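Total RNA of the 3 states was labelled with Cy3 and hybridised by the authors to SurePrint G3 Mouse 8x60K arrays. The deposited scanner files hold spot intensities which, per the file headers, Agilent Feature Extraction 10.10.1.1 had background-subtracted and spatially detrended, with an error and flags for each spot. The authors' value table holds the same intensities multiplied by a constant (1.52 on both the adherent and the non-adherent array, 1.62 on the re-adherent one). How those constants were set is not given in the sources used here.

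Here, non-uniform and outlier spots were left out (154 to 180 of 59305 non-control spots), and none was saturated. From the log2 processed signal, the 75th percentile of each array was subtracted (651, 697 and 541 units). Between 53.9% and 59.9% of spots were well above background, and the number of arrays limits the precision. Probes were named through RefSeq accessions of assembly GRCm38.p6, which gave a symbol to 27235 of 55681 probes. Its probes were designed on an older assembly, so no probe coordinates are given. A gene was read by its probe with the highest mean among those well above background on at least 1 array. The error of a difference joins the software errors of both arrays, and its median of 0.20 exceeds the SD of 0.06 to 0.08 seen between repeated spots. It covers technical error only. With 1 array per group no test was possible, and over 2-fold was called a difference. Where a gene was not well above background on an array, the fold is a lower bound against the lowest signal well above background there, or against the gene's own signal where that was higher. Such a bound is approximate, and normexp correction gave smaller differences for Rassf6, Rassf9 and Frmd6.

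Members and lists were chosen with earlier results of these data known. The text names all members and their probes, and of the other pathway genes Amot, Mob1a, Mob1b, Wwc1, Wwc2 and up to 12 past 4-fold in a pair of arrays, by size. The 3 profiles nearest to Rassf6 are also named. The alternatives were 8: no scaling, quantile normalization, scaling to 7 spike-in probes, the authors' values, normexp with offset 50, a floor for low signals at the lowest one well above background, a filter on all 3 arrays, and the mean of probes. Leaving Rassf6 out of the list was added after seeing the data. Normexp used the median foreground signal where the mean had been planned, since the files used here give no column of means. Scripts ran in Python 3.11.15 and R 4.3.3 with limma 3.58.1 and were tested on simulated data.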

Additional observations from a re-analysis of the deposited data

How the results depend on the processing

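Across the 8 alternatives, the members over 2-fold lower in suspension numbered 4 to 6 (5 as reported) and those over 2-fold higher on re-adhesion 4 or 5, and 0 members passed 2-fold in any other direction. Lats2, Amotl1, Amotl2 and Ptpn14 passed 2-fold in both steps under all 8, and Rassf6 under the 7 that could measure it. The sixth gene was Lats1, at -1.07 with spike-in scaling, which shifted the median of all genes to -0.46 in suspension. The filter on all 3 arrays drops Rassf6, and the median of the other 9 members relative to all genes was then -0.59 into suspension and 0.67 on re-adhesion, against -1.26 and 1.26 with Rassf6. Leaving out Rassf6 alone, a choice made after seeing the data, gave -0.61 and 0.70. Averaging probes gave -1.47 into suspension. The Rassf6 difference ran from -9.80 to -5.12 into suspension and from 4.95 to 9.25 on re-adhesion, the smallest with normexp. Small differences changed sign: Sav1 on re-adhesion to -0.19 without scaling and -0.10 with the authors' values, and between the attached states Amotl1 (down to -0.44), Ptpn14 (0.08) and Lats2 (0.06), besides Stk4 and Nf2. No paired analysis was possible because every state was measured once, and no array could be left out for the same reason.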

Other observations

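Other classes of the pathway were also measured. The polarity and junction proteins, which tie the pathway to cell contacts, had 8 measured genes, of which 2 were over 2-fold lower in suspension and 5 over 2-fold higher on re-adhesion. The 2 were Pard3 (-1.65 ± 0.20, then 1.49 ± 0.20) and Dlg1 (-1.49 ± 0.20, then 1.55 ± 0.20). Crb2, an apical polarity protein, went from 118 to 67.6 and then to 211 units, and its scaled re-adherent level was 2.15-fold above the adherent one. That call depended on the processing. With spike-in scaling or normexp correction none of the 74 genes, Crb2 included, was over 2-fold higher in that pair. For a gene as dim as Crb2 the normexp offset itself shrinks the difference. The STRIPAK complex, a phosphatase assembly that switches MST kinases off, had 13 measured genes, of which 10 stayed within 2-fold in suspension. Strip2 had 54.6, 1227 and 42.3 units in adherent, non-adherent and re-adherent cells, a difference of 4.39 ± 0.23 and then -4.49 ± 0.26, the widest of the 74 other pathway genes in both steps. The striatin Strn3 went the other way, with -1.82 ± 0.20 and 1.68 ± 0.20. Of 13 genes for turnover of pathway proteins, the ubiquitin ligases Nedd4 and Wwp1 moved in opposite directions, with -1.48 ± 0.20 and 1.70 ± 0.20 into suspension and 1.42 ± 0.20 and -1.83 ± 0.20 on re-adhesion. Apart from Strip2, the genes of this paragraph are named after their values were seen.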
